A study of Homo sapiens with 9 samples.

Results

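GSTP1, RASSF1, RARB, APC, CDH13, EDNRB, PTGS2, MGMT and CAV1 are 9 genes whose promoters are widely described as hypermethylated in prostate cancer. They were chosen by name, and each was found once among the 60617 Ensembl genes of the count files. Their expression was followed in 9 RNA-seq libraries of PC-3 cells, an established human prostate cancer cell line. There were 3 libraries of control cells, 3 of cells given decitabine at 1 µM and 3 of cells given decitabine at 1 µM together with S-adenosylmethionine (SAM) at 200 µM, which is called the combination treatment here. RNA was taken after 5 days with a change of medium every other day, and the study's methods give the controls the vehicle of the drugs, a dilute mixture of sulfuric acid and ethanol in PBS. Doses come from those methods. A single cell line was used, and neither the labels nor the methods say whether replicates were separate cultures, so the p-values measure the spread between these libraries.

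Methylation of cytosines in CpG sites around a transcription start is associated with a silent promoter. Tumor cells often carry such methylation at genes of detoxification, DNA repair, adhesion and growth control. Decitabine is a cytidine analog that enters replicating DNA and traps DNA methyltransferases, so that methylation is lost as cells divide. SAM is the methyl donor those enzymes use. The comparisons address whether these genes are expressed differently after demethylating treatment, and whether adding SAM changes that. Methylation itself was not measured in the files used here.

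The promoters of the 9 genes differ widely in CpG content. RefSeq windows of 300 bases, from 250 bases before to 50 bases after a transcription start (GRCh38.p14), were at hand for 8 members but not for CDH13. CpG sites were counted as the letters CG, which read the same on both strands. The windows at the main annotated start hold 45 sites in MGMT, 36 in GSTP1, 23 in APC, 19 in EDNRB, 18 in CAV1, 12 in PTGS2 and 7 in RARB, and the RASSF1 window, which lies 3386 bases from that gene's main start, holds 33. Among the windows at other starts, one of CAV1, 1326 bases from its main start, holds 36 sites, as many as that of GSTP1. The median of all 35116 windows was 14 sites. The share of all windows with at least as many sites was 3.48% for MGMT, 12.7% for GSTP1 and 63.2% for RARB. Printed here are the windows of the members with the most CpG sites at the main start, GSTP1 (chr11:67583562-67583861, plus strand) and MGMT (chr10:129466991-129467290, plus strand), and of the members with few or no counts in the controls, EDNRB (chr13:77918782-77919081, minus strand), PTGS2 (chr1:186680374-186680673, minus strand) and RARB (chr3:25428013-25428312, plus strand). Capitals mark the CpG sites.
GSTP1: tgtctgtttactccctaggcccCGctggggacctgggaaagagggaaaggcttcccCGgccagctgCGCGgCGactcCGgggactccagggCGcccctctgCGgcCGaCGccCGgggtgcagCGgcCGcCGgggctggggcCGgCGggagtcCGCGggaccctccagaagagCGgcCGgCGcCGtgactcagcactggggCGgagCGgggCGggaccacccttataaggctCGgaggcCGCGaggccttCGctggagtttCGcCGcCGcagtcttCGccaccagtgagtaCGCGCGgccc
MGMT: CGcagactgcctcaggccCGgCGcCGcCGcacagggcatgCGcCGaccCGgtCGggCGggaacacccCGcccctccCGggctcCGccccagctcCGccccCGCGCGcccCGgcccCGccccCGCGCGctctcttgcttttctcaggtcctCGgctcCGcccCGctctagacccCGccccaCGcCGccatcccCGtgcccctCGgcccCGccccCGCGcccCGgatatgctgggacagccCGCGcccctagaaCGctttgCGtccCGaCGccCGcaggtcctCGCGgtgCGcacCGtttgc
EDNRB: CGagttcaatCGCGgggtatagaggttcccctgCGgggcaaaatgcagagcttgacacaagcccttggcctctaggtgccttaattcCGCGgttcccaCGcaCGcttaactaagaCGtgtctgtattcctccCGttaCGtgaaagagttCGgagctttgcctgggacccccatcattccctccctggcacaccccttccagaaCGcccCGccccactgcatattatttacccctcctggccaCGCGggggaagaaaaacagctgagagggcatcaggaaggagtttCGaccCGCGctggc
PTGS2: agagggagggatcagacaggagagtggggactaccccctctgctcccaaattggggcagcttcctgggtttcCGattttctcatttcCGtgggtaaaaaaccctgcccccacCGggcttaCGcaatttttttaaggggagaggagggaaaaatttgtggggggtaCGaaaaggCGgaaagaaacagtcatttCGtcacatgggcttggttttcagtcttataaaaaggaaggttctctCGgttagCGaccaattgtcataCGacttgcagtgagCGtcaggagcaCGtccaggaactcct
RARB: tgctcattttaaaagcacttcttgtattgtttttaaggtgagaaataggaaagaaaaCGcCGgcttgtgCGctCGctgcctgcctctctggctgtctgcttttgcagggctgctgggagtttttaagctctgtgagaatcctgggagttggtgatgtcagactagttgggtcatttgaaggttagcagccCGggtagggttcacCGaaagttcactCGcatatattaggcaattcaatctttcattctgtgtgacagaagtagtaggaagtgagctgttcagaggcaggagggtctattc

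**Figure D1:**
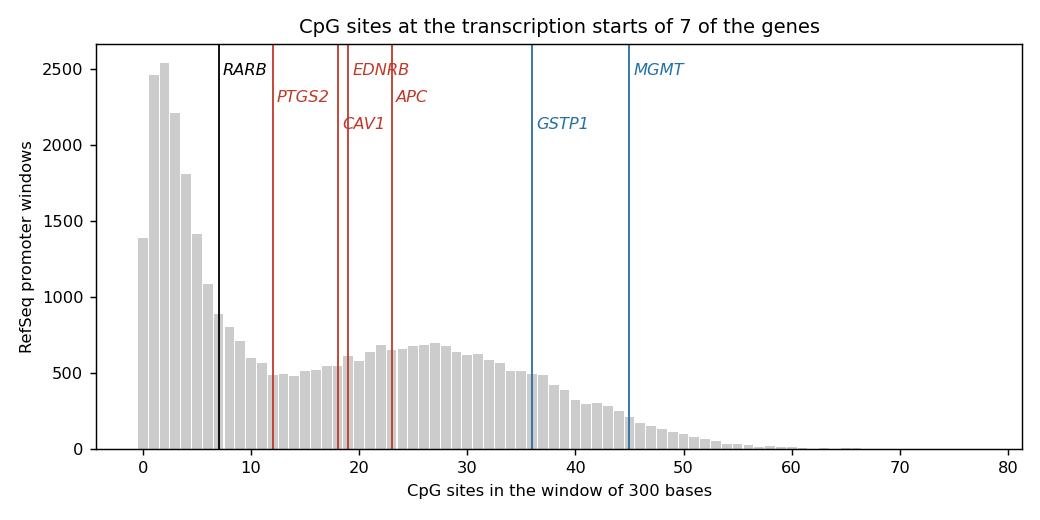
Number of RefSeq promoter windows (vertical axis) by their number of CpG sites in 300 bases (horizontal axis), with lines for the 7 members that have a window at their main start. Blue lines mark members that decitabine lowered, red lines those it raised and the black line RARB, which was not tested. MGMT and GSTP1, with 45 and 36 sites, lie far to the right of the median of 14, and RARB and PTGS2 lie below it.

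The 9 libraries held between 21934307 and 22489684 estimated counts. Levels are given as CPM, the counts relative to the library total after scaling with the TMM method of edgeR, as mean ± SD of 3 libraries. The identity of the line was checked with its markers. The epithelial genes KRT8, KRT18, KRT19 and EPCAM were expressed in all groups, and KLK3, which encodes prostate-specific antigen, had no counts in any library. All 4 markers of leukocytes (PTPRC), endothelium (PECAM1) and fibroblasts (COL1A1 and DCN) were higher in both treated groups. Their summed level was 12.3 to 14.3 CPM in the controls, 85.3 to 100.6 CPM in the decitabine libraries and 80.6 to 93.8 CPM in the combination libraries, and none was at 0 in the treated groups. Their part in the results was not tested.

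In control cells, 6 of the 9 members were clearly expressed and 3 were nearly silent. Per kilobase of annotated exon, the control level was 109 ± 6.98 CPM for GSTP1, 50.7 ± 2.15 for CAV1, 9.24 ± 0.332 for RASSF1, 4.63 ± 0.615 for MGMT, 4.53 ± 0.485 for CDH13 and 1.83 ± 0.172 for APC. MGMT and CDH13 did not differ beyond their spread. PTGS2 (0.0091 ± 0.0091 CPM per kilobase), RARB (0.0035 ± 0.0030) and EDNRB (no counts) did not differ beyond theirs. The 2 members with the most CpG sites at their main starts, MGMT and GSTP1, were thus among the expressed genes, as was CAV1, while the silent EDNRB and PTGS2 had 19 and 12 sites.

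Among the 18532 genes tested, 36.3% were upregulated and 32.5% downregulated with decitabine at an adjusted p-value under 0.05 (edgeR's quasi-likelihood test with Benjamini-Hochberg adjustment over all genes tested). Of the 9 members, 8 had enough counts for the test and RARB had not. Decitabine upregulated 5 of them (EDNRB, PTGS2, CAV1, APC and RASSF1) and downregulated 3 (MGMT, GSTP1 and CDH13). The combination treatment upregulated 4 (EDNRB, PTGS2, APC and CAV1) against a background of 35.9%, downregulated the same 3 genes against a background of 31.3%, and left RASSF1 not called. The tested members had a median log2 fold change of 0.51 (decitabine) and 0.40 (combination treatment), beside 0.035 and 0.048 for all genes tested. EDNRB and PTGS2 passed the filter on low counts only through the treated groups, so they had to differ. Both treatments were compared with the same 3 control libraries. Where groups are said below not to overlap, the share of all genes without overlap was not counted. In bulk RNA, a changed number of expressing cells and a changed level per cell cannot be told apart.

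**Figure D2:**
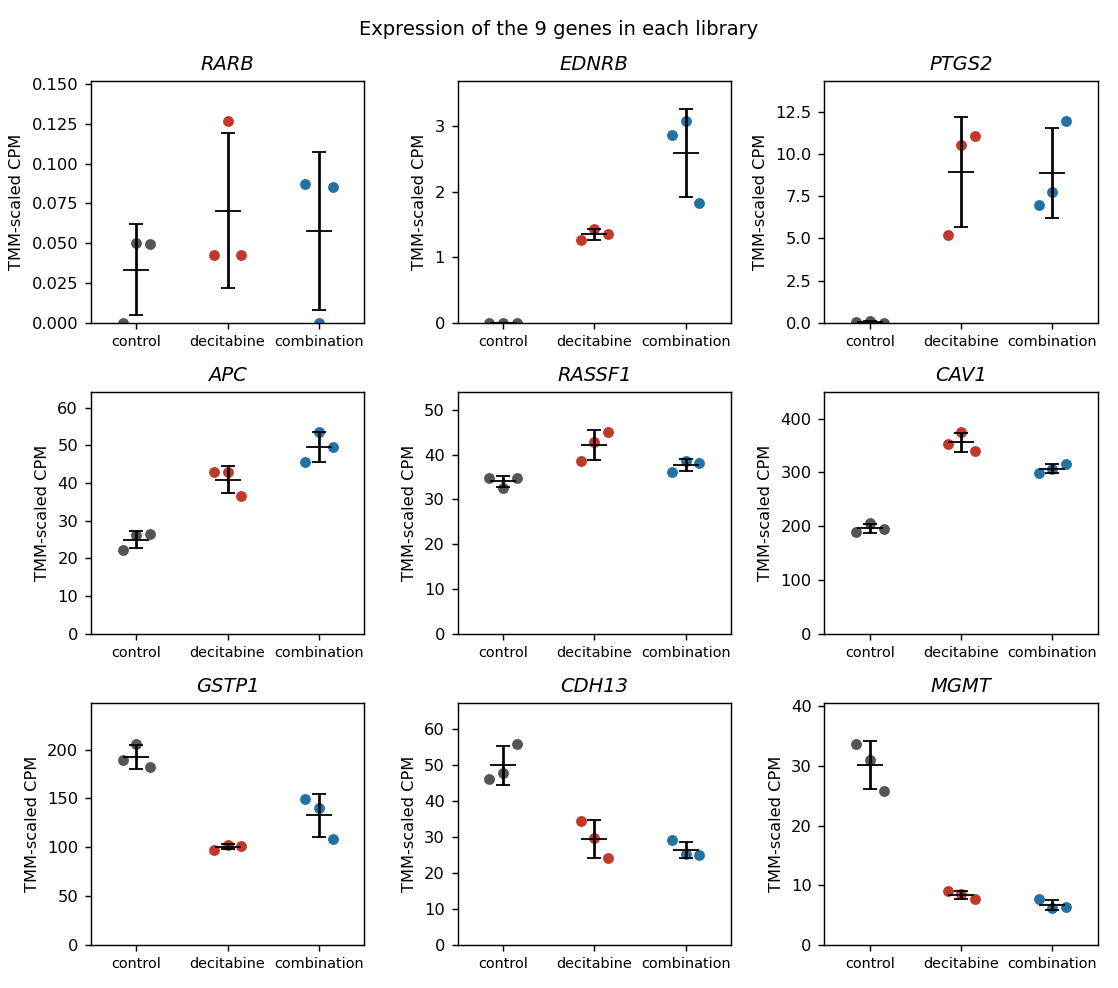
TMM-scaled CPM of the 9 members in each of the 9 libraries (points; vertical axes differ between panels) with the mean and SD of the 3 libraries of each group. EDNRB and PTGS2 leave the floor in all 6 treated libraries, and MGMT falls from 25.9 to 33.8 CPM in controls to 6.20 to 9.01 CPM in treated cells.

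EDNRB (ENSG00000136160, chr13:77895481-77975529, minus strand) encodes the endothelin receptor type B, a G protein-coupled receptor that binds and clears endothelins. It had 0 counts in all 3 control libraries. There were 30, 34 and 32 counts in the 3 decitabine libraries (1.27, 1.43 and 1.36 CPM) and 66, 70 and 43 counts in the combination libraries (2.87, 3.08 and 1.83 CPM). The groups did not overlap, and every treated library lay above every control. With the controls set to a floor of 3 counts over the group (0.0497 CPM), EDNRB was at least 27.2-fold higher with decitabine (adjusted p = 1.3e-06) and at least 52.1-fold higher with the combination treatment (adjusted p = 1.7e-07). These bounds allow for counting error in the controls only and take the treated counts as exact. The adjusted p-values belong to the fitted log2 fold change of edgeR's test, not to the bounds. A lncRNA on the same strand, ENSG00000233379, shares 124 exon bases with EDNRB and had 0, 31 and 21 counts over the 3 groups in turn, so part of the reads could belong to either gene.

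PTGS2 (ENSG00000073756, chr1:186671791-186680922, minus strand) encodes cyclooxygenase-2, the inducible enzyme that starts prostaglandin synthesis from arachidonic acid. The controls had 1, 2 and 0 counts. The decitabine libraries had 123, 250 and 262 counts (5.20, 10.5 and 11.1 CPM) and the combination libraries 160, 176 and 281 counts (6.97, 7.74 and 11.97 CPM). The treated libraries varied within each group, with decitabine replicate 1 the lowest, and none came near the controls. The ratio to the controls was 180 with decitabine (95% counting interval 61.3 to 876, adjusted p = 2.4e-06) and 180 with the combination treatment (61.1 to 873, adjusted p = 2.6e-06). The fitted log2 fold change, 7.34 and 7.33, rested on these few control counts, and was 8.20 and 8.19 without control replicate 2 and 6.79 and 6.78 without control replicate 3. PACERR, the antisense transcript that shares 219 exon bases with PTGS2, had 0, 0 and 8 counts over the groups.

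RARB (ENSG00000077092, chr3:24687887-25597932, plus strand) encodes retinoic acid receptor beta, a nuclear receptor that is itself a target of retinoic acid. It had 0, 1 and 1 counts in controls, 1, 3 and 1 with decitabine and 2, 0 and 2 with the combination treatment. The groups overlapped, and a difference was not detectable at this depth. The ratio of decitabine to control was 2.13 (95% counting interval 0.348 to 22.3), and that of the combination treatment to control was 1.75 (0.250 to 19.3). Without the filter on low counts, the adjusted p of edgeR's quasi-likelihood test was 0.60 and 0.75. RARB has other annotated starts, whose windows hold 33, 1 and 2 CpG sites, and counts per gene do not separate them.

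CAV1 (ENSG00000105974, chr7:116524994-116561179, plus strand) encodes caveolin-1, the coat protein of the membrane pits called caveolae. It had 189, 205 and 194 CPM in controls, 353, 374 and 340 CPM with decitabine and 300, 306 and 316 CPM with the combination treatment. All 6 treated libraries lay above all controls, and the 2 treated groups did not overlap either. The log2 fold change was 0.86 (SE 0.07, adjusted p = 7.6e-08) with decitabine and 0.65 (SE 0.07, adjusted p = 1.3e-06) with the combination treatment.

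APC (ENSG00000134982, chr5:112707518-112846239, plus strand) encodes the scaffold of the complex that marks β-catenin for destruction. Its level was 22.3, 26.1 and 26.6 CPM in controls, 43.0, 43.0 and 36.7 CPM with decitabine and 45.7, 53.5 and 49.5 CPM with the combination treatment. The order control, decitabine, combination held without overlap. The log2 fold change was 0.71 (SE 0.10, adjusted p = 1.5e-05) with decitabine and 0.99 (SE 0.10, adjusted p = 6.1e-07) with the combination treatment. APC has another annotated start 30387 bases away, with 14 CpG sites in its window, and the counts do not say which start was used.

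RASSF1 (ENSG00000068028, chr3:50329782-50340980, minus strand) encodes Ras association domain proteins that act in the Hippo pathway and in microtubule control. It had 34.8, 32.6 and 34.7 CPM in controls, 38.5, 42.9 and 44.9 CPM with decitabine and 36.1, 38.6 and 38.1 CPM with the combination treatment. The groups did not overlap with the controls, but the shifts were small. The log2 fold change was 0.31 (SE 0.08, adjusted p = 0.0032) with decitabine and 0.14 (SE 0.08, adjusted p = 0.12) with the combination treatment. When libraries were scaled by their size alone, which moves the median of all genes tested to 0.28 and 0.27, RASSF1 was at 0.55 and 0.37, and the latter passed the threshold (adjusted p = 0.0013). The gene has transcripts from separate promoters, of which the one for isoform A is the methylated one in tumors, and counts per gene cannot show which of them changed. The antisense gene RASSF1-AS1 shares 659 exon bases with it and had 21, 34 and 22 counts over the groups.

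MGMT (ENSG00000170430, chr10:129467190-129770983, plus strand) encodes the methyltransferase that removes alkyl groups from the O6 position of guanine in DNA. It showed the largest decrease of the members. Its level was 33.8, 31.1 and 25.9 CPM in controls, 9.01, 8.56 and 7.71 CPM with decitabine and 7.62, 6.20 and 6.26 CPM with the combination treatment. All treated libraries lay below all controls. The log2 fold change was -1.84 (SE 0.12, adjusted p = 1.5e-08) with decitabine and -2.17 (SE 0.13, adjusted p = 4.1e-09) with the combination treatment.

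GSTP1 (ENSG00000084207, chr11:67583742-67586656, plus strand) encodes the pi class glutathione S-transferase, which conjugates glutathione to electrophiles, and its promoter is among the most frequently methylated in prostate cancer. In these PC-3 cells it was one of the most abundant members, with 190, 206 and 182 CPM in controls. It had 97.5, 102.5 and 101.0 CPM with decitabine and 149.8, 140.2 and 108.1 CPM with the combination treatment. Both treated groups lay below the controls, and the third combination library stood close to the decitabine libraries. The log2 fold change was -0.94 (SE 0.10, adjusted p = 1.7e-06) with decitabine and -0.54 (SE 0.10, adjusted p = 0.00029) with the combination treatment.

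CDH13 (ENSG00000140945, chr16:82626965-83800640, plus strand) encodes T-cadherin, a cadherin held in the membrane by a lipid anchor. It had 46.0, 47.7 and 56.0 CPM in controls, 34.6, 29.8 and 24.1 CPM with decitabine and 29.1, 25.3 and 25.0 CPM with the combination treatment. The treated groups lay below the controls and overlapped with each other. The log2 fold change was -0.76 (SE 0.12, adjusted p = 8e-05) with decitabine and -0.92 (SE 0.12, adjusted p = 1.7e-05) with the combination treatment. CDH13-AS2 shares 2354 exon bases with CDH13 on the opposite strand and had 21, 115 and 35 counts over the groups, beside 3016, 2095 and 1831 for CDH13. The strand setting of the counting is not given in the sources used here. When libraries were scaled by their size alone, GSTP1, CDH13 and MGMT kept their direction and their calls against controls in both treatments.

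**Figure D3:**
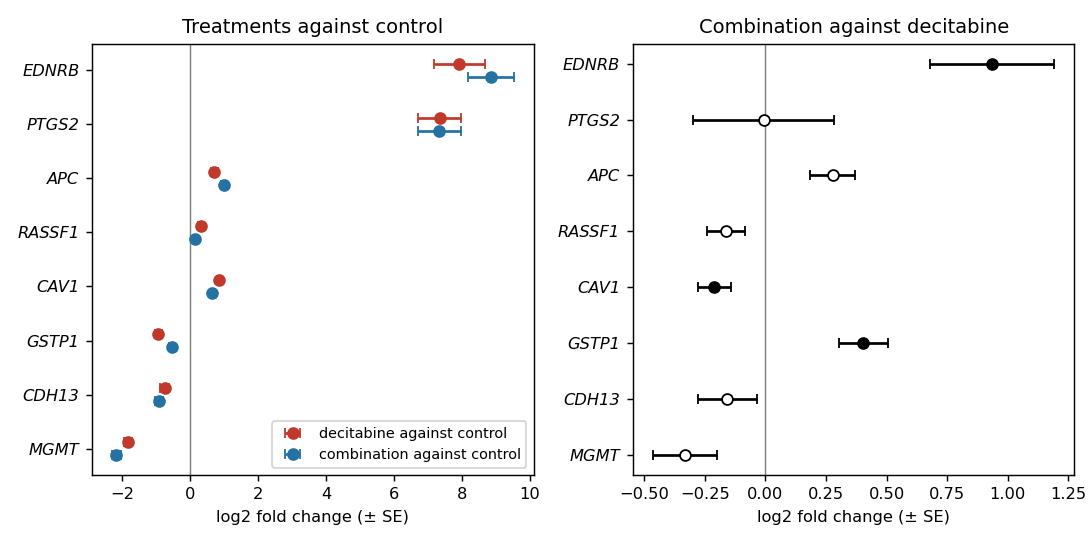
Log2 fold change (horizontal axis) of the 8 tested members, with SE as error bars, for both treatments against control (left) and for the combination treatment against decitabine (right, filled points with an adjusted p under 0.05). The fitted values of EDNRB and PTGS2 depend on the prior count because the controls had 0 and 3 counts in total, MGMT, GSTP1 and CDH13 lie below 0 in both treatments, and the right axis spans a smaller range than the left.

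The combination treatment was then compared with decitabine alone, in which 7.67% of all genes tested were higher and 8.02% lower. Among the members, 2 were higher (EDNRB and GSTP1), 1 was lower (CAV1) and 5 were not called, while 5 of the 8 had an unadjusted p under 0.05. EDNRB was higher by 0.94 on the log2 scale (SE 0.26, adjusted p = 0.029), from 1.35 ± 0.083 to 2.60 ± 0.669 CPM. GSTP1 was higher by 0.40 (SE 0.10, adjusted p = 0.017), from 100.3 ± 2.61 to 133 ± 21.8 CPM, and so stood nearer to its control level of 193 ± 12.3 CPM. CAV1 was lower by a log2 difference of -0.21 (SE 0.07, adjusted p = 0.048), from 356 ± 17.4 to 307 ± 8.36 CPM.

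The calls between the treatments did not all hold when a single library was left out. The EDNRB call was lost without any 1 of the 3 decitabine libraries or without combination replicate 1 or 2 (log2 difference 0.80 to 0.98, adjusted p 0.055 to 0.14). The GSTP1 call was lost without decitabine replicate 1 or 2 or combination replicate 1 or 2 (0.30 to 0.42, adjusted p 0.056 to 0.089). Without combination replicate 3, GSTP1 was at 0.53 (adjusted p = 0.00024) and EDNRB at 1.14 (adjusted p = 0.0068). The CAV1 call was lost in 7 of the 9 fits that left out 1 library, and was held only without decitabine replicate 3 (adjusted p = 0.037) or combination replicate 3 (adjusted p = 0.034).

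The other members differed less clearly between the treatments. APC had a log2 difference of 0.28 (SE 0.09, adjusted p = 0.058), MGMT of -0.33 (SE 0.13, adjusted p = 0.10), RASSF1 of -0.16 (SE 0.08, adjusted p = 0.17) and CDH13 of -0.16 (SE 0.12, adjusted p = 0.42). For PTGS2 the difference was -0.01 with an SE of 0.29 (adjusted p = 0.99), so that a moderate difference in either direction is within the error. The libraries of the 2 treatments did not overlap for APC and MGMT, and they overlapped for RASSF1, CDH13 and PTGS2. The share of all genes without overlap was not counted, so this separation adds no evidence to the test.

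A list of 35 other genes described as hypermethylated in prostate cancer was examined beside the members, and 28 of them were tested. Of all genes tested, 36.3% were higher and 32.5% lower with decitabine, and 35.9% and 31.3% with the combination treatment. Between the treatments, 7.67% were higher and 8.02% lower. With decitabine, 19 were upregulated, 2 downregulated and 7 not called (median log2 fold change 1.98). With the combination treatment, 20 were upregulated, 3 downregulated and 5 not called (median 1.88). GPX3, a secreted glutathione peroxidase, had no counts in controls and 5.92 ± 1.34 CPM with decitabine and 7.15 ± 0.901 CPM with the combination treatment. SLC16A5, a monocarboxylate transporter, had 3 counts in all controls and 9.76 ± 0.332 and 8.94 ± 1.42 CPM in the treated groups. GPX3, SLC16A5 and other genes nearly silent in controls passed the filter on low counts only through the treated groups, so they had to differ. They count among the upregulated genes and raise the medians. CDKN2A, which encodes cell cycle inhibitors, fell with decitabine from 176 ± 35.3 to 110 ± 7.40 CPM (log2 fold change -0.67, adjusted p = 0.00039). AOX1, an aldehyde oxidase, fell with the combination treatment from 38.1 ± 5.85 to 21.9 ± 0.541 CPM (-0.80, adjusted p = 4.7e-05). Between the treatments 0 were higher and 2 lower in edgeR's test (12 had an unadjusted p under 0.05, and DESeq2 and voom each called 1 higher). These 2 were DKK3, a member of the Dickkopf family, at 17.99 ± 2.42 CPM in the decitabine and 8.99 ± 0.511 CPM in the combination libraries (-1.0, adjusted p = 0.00068), and GAS6, a ligand of TAM receptor kinases (-0.87, adjusted p = 0.0038). DKK3 had 0.199 ± 0.0985 CPM in controls and so stayed above them in both treatments. GAS6 had 17.5 ± 1.10 CPM in controls and 10.8 ± 2.27 CPM in the combination libraries.

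**Figure D4:**
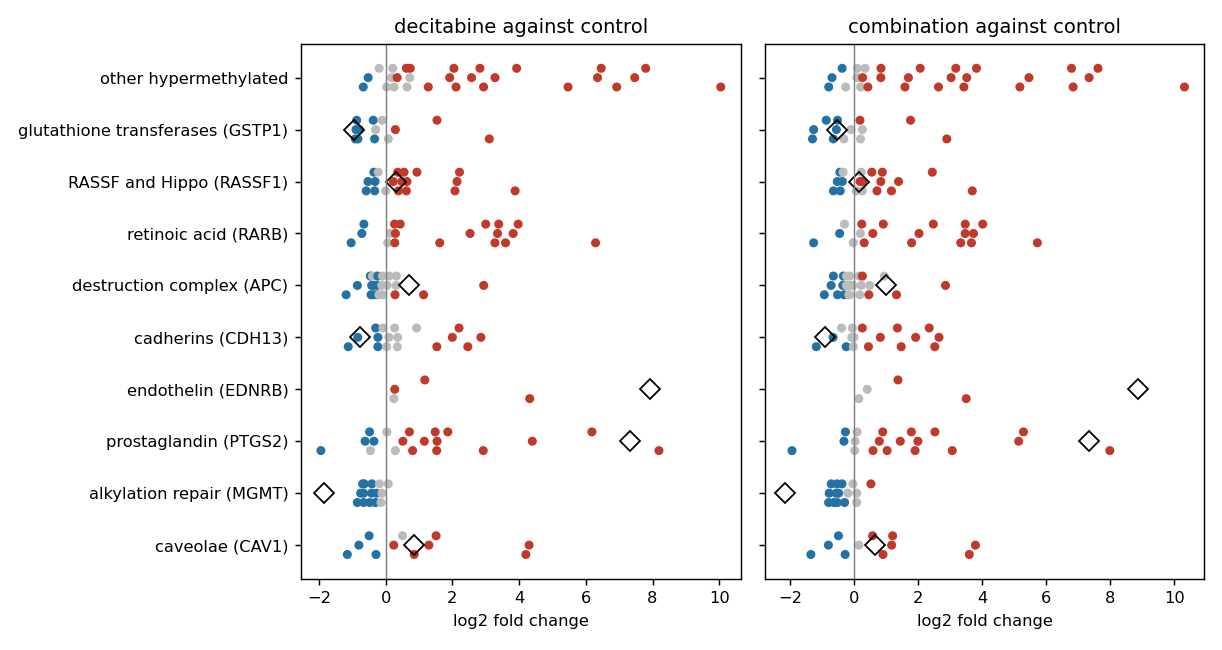
Log2 fold change (horizontal axis) of each tested gene of the list of other hypermethylated genes and of the lists of relatives and partners of the members, for each treatment against control. Red points were called higher, blue points lower and grey points neither, and open diamonds mark the member itself. Most points of the hypermethylated and retinoic acid lists lie to the right of 0, and those of alkylation repair, like MGMT, mostly to the left. Among the points on the right are genes nearly silent in controls, which had to differ.

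The relatives and partners of each member were listed by pathway. Their counts stand beside 36.3% higher and 32.5% lower of all genes tested with decitabine. With the combination treatment these shares were 35.9% and 31.3%, and between the treatments 7.67% and 8.02%. No list was tested as a set. Some list genes that were nearly silent in controls passed the filter on low counts only through the treated groups. These had to differ, and they count among the genes that rose. In the repair of alkylated DNA, where MGMT acts, all 15 genes were tested, and 0 rose and 11 fell with decitabine in edgeR's test (median log2 fold change -0.42; 11 had an unadjusted p under 0.05). With the combination treatment 1 rose and 10 fell (median -0.49). XRCC1, a scaffold of base excision repair, changed by -0.85 (SE 0.10, adjusted p = 3.4e-06) with decitabine, and APEX1, the endonuclease at abasic sites, by -0.75 (SE 0.08, adjusted p = 8.3e-07). ALKBH2, which reverses alkylation directly, was the 1 gene that rose (0.52, SE 0.10, adjusted p = 0.00023). When libraries were scaled by their size alone, 1 rose and 6 fell with decitabine (median -0.18), and 2 rose and 8 fell with the combination treatment (median -0.26).

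Of the other glutathione S-transferases, 13 were tested, of which 3 rose and 7 fell with decitabine and 3 rose and 6 fell with the combination treatment. The medians were -0.33 and -0.32. Scaled by library size alone, 4 rose and 5 fell with decitabine (median -0.087), and 4 rose and 6 fell with the combination treatment (median -0.10). GSTK1, a mitochondrial and peroxisomal transferase, fell in both treatments, from 190 ± 7.07 CPM in controls to 103 ± 12.9 CPM (decitabine) and 79.1 ± 2.43 CPM (combination), and differed between the treatments (-0.38, adjusted p = 0.0096). MGST1, a microsomal family member, had 106 ± 0.912 CPM with decitabine and 128 ± 8.14 with the combination treatment (0.27, adjusted p = 0.019). GSTO2, an omega class enzyme, rose by 1.54 and 1.76 on the log2 scale. GSTM2 fell by 0.91 with decitabine, but genes of the mu class are near copies of each other and the counting could split their reads.

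In the endothelin pathway of EDNRB, 4 of 7 genes were tested, and 3 rose with decitabine and 2 with the combination treatment, while 0 fell in edgeR's test. With the combination treatment, 3 rose when DESeq2's size factors were used and all 4 when libraries were scaled by their size alone. The ligand gene EDN1 rose in both treatments, from 0.581 ± 0.254 CPM in controls to 11.7 ± 0.855 CPM (decitabine) and 6.61 ± 1.55 CPM (combination), and the latter was lower than the former (-0.82, SE 0.18, adjusted p = 0.0091). Ligand and receptor thus both rose in each treatment, and between the treatments EDN1 was lower where EDNRB was higher. MME, a peptidase that degrades endothelins, rose by 1.17 and 1.37.

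In the prostaglandin pathway of PTGS2, 12 of 19 tested genes rose and 4 fell with decitabine, and 13 rose and 3 fell with the combination treatment (15 and 1 when scaled by library size alone). TBXAS1, thromboxane synthase, fell by 1.94 in both (adjusted p = 0.00021 and 0.00022). PTGDS, a prostaglandin D synthase, went from 4 counts in all controls to 5.21 ± 0.793 and 2.52 ± 0.718 CPM. It passed the filter on low counts only through the treated groups, so it had to differ from the controls. Between the treatments 7 genes were higher and 1 lower. Among the former were PLA2G4A, the phospholipase that releases arachidonic acid (0.74, adjusted p = 0.0031), PTGS1, which encodes cyclooxygenase-1 (0.89, adjusted p = 0.041), PTGES, a prostaglandin E synthase (0.60, adjusted p = 0.0089) and PTGER1, a prostaglandin E receptor (0.66, adjusted p = 0.036), and the latter was PTGDS (-1.04, adjusted p = 0.013).

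In the retinoic acid pathway of RARB, 14 of 19 tested genes rose and 3 fell with decitabine (median 1.62), and 14 rose and 2 fell with the combination treatment (median 1.79). TGM2, a transglutaminase that retinoic acid induces, rose from 25.2 ± 6.34 CPM to 396 ± 51.3 and 320 ± 35.0. STRA6, a retinol transporter, had 3 counts in all controls and 4.33 ± 0.935 and 2.91 ± 1.19 CPM in the treated groups. STRA6 and other genes nearly silent in controls passed the filter on low counts only through the treated groups, so they had to differ. They count among the genes that rose and raise the medians. ALDH1A3, which makes retinoic acid, fell by 1.03 and 1.27. PLAAT4, a gene formerly named for its response to retinoids, was lower in the combination than in the decitabine libraries (-2.03, SE 0.30, adjusted p = 0.0026). RDH10, a retinol dehydrogenase, was higher (0.40, SE 0.06, adjusted p = 0.0018).

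Of 11 tested genes of caveolae, 6 rose and 4 fell in each treatment. Over all genes tested, 36.3% rose and 32.5% fell with decitabine, and 35.9% and 31.3% with the combination treatment. CAV2, the partner of CAV1, rose by 1.51 with decitabine, and CAVIN2, which shapes caveolae, rose from 4.24 ± 0.581 CPM to 78.2 ± 14.2 and 51.3 ± 0.761. FLOT1, a marker of lipid rafts, fell by 1.15 and 1.35. Like CAV1, CAV2 (-0.34, adjusted p = 0.020) and CAVIN2 (-0.61, adjusted p = 0.0051) were lower in the combination than in the decitabine libraries. CAVIN1, which is required for caveolae to form, had 1, 2 and 1 counts over the groups. It was not among the genes to be named and was picked out after its values were seen.

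For the destruction complex and Wnt targets around APC, 3 of 23 tested genes rose and 10 fell with decitabine, and 4 rose and 7 fell with the combination treatment (medians -0.24 and -0.15). This direction turned when libraries were scaled by their size alone, with 6 higher and 4 lower (median 0.010) and 8 higher and 3 lower (median 0.076). AXIN2, a Wnt target and member of that complex, rose by 2.94 and 2.85, while MYC fell by 0.85 and 0.72 and LEF1 by 1.18 and 0.65.

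In the RASSF and Hippo list, 12 of 19 tested genes rose and 5 fell with decitabine, and 10 rose and 5 fell with the combination treatment. Scaled by library size alone, 13 rose and 2 fell in both. The targets CCN1 and CCN2, which encode secreted matrix proteins, reached 296 ± 39.7 and 120 ± 25.0 CPM with decitabine and were lower with the combination treatment (-0.76 and -1.05, adjusted p = 0.041 and 0.015). In both treatments they were higher than in controls (67.1 ± 17.3 and 25.8 ± 6.93 CPM). Among cadherins and catenins, 5 of 17 tested genes rose and 5 fell with decitabine, and 9 rose and 3 fell with the combination treatment. Scaled by library size alone, 9 rose and 2 fell in both. The decitabine counts of the main fit were below the shares over all genes tested (36.3% and 32.5%). JUP, which encodes plakoglobin, rose by 2.46 and 2.52, CDH2 by 1.54 and 1.35, and CDH11 fell by 0.83 and 0.66. Between the treatments, edgeR's test called 0 of these 17 genes, while 7 had an unadjusted p under 0.05.

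Across all lists, 28 of the genes called between the treatments could be named, and each kept its direction in all 9 fits that left out 1 library. The genes were picked by their calls in these same libraries, so a kept direction was likely from the outset. Of the 9 fits, 3 left out a control library, which is not part of this comparison. The call held in all 9 of these fits for 9 genes, which were DKK3, GAS6, GSTZ1, PLAAT4, RDH10, AMER1, PLA2G4A, ALKBH2 and CAVIN2. It held in 8 for EDN1, GSTK1 and PTGES, in 7 for MOB1A and CRABP2, in 6 for CCN2, STK4, CAV2 and PTGDS, and in 5 for MGST1 and EXO1. The least stable calls were those of PTGS1, GSTO1 and DHRS3 (4 fits), CCN1, PTGER1 and TCF7 (3 fits), EHD4 (1 fit) and MOB1B (0 fits in edgeR's test).

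For each tested member, the genes with the most similar profile over the 9 libraries were found by Euclidean distance of centred log2 CPM. GSTP1 was nearest to NDUFS6 (distance 0.151) and NDUFB10 (0.201), both subunits of respiratory complex I. NDUFS6 had 100.1, 50.9 and 69.2 CPM in the 3 groups in turn. MGMT was nearest to SHMT2 (0.349), the mitochondrial serine hydroxymethyltransferase, which had 542, 148 and 138 CPM. CDH13 was nearest to PDHA1 (0.186), a subunit of pyruvate dehydrogenase, CAV1 to PCSK7 (0.180), APC to SLC4A11 (0.227) and RASSF1 to ECE1 (0.144), an endothelin-converting enzyme. EDNRB and PTGS2 had more distant neighbours, MPC1L (0.390) and ALPP (0.854), which both had no counts in controls.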

How the data were processed

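RNA-seq was performed on 9 libraries of PC-3 cells on the BGISEQ-500. The authors trimmed reads with Trim Galore 0.6.4, per the labels, counted them with kallisto on GRCh38.p13, and deposited the estimated counts of each Ensembl gene, which were not normalized and have decimals. The deposited log2 CPM values were not used. No library of SAM alone was analysed here. Sample labels gave the groups and the replicate numbers.

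Of the 60617 identifiers, 60357 were matched to gene names. The positions are those of GENCODE v44 on GRCh38. Estimated counts were rounded, and 18532 genes passed edgeR's filterByExpr. All 9 libraries were fitted with edgeR 4.0.16 in R 4.3.3 (TMM, robust quasi-likelihood test, common dispersion 0.00977). The Benjamini-Hochberg adjustment ran over all these genes, with a threshold of 0.05. Members and gene lists were chosen with earlier results of these data known. From each list, up to 3 genes that rose and 3 that fell with the largest change and at least 50 counts on average in 1 group could be named per treatment, and up to 5 called genes between the treatments.

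Pairs of libraries of a group differed by a chi-square of 6.40 to 26.1 per degree of freedom, so none was a copy. On simulated data the test recovered 100% of 200 changed genes with 4.58% false calls for decitabine against control, over 5 draws of at least 18005 genes tested. The changed genes had over 50 counts on average and a log2 change of at least 1, as many up as down. Far fewer genes changed than in the real data. Smaller changes and genes with few counts were not simulated, so the recovery does not cover them. Alternatives were DESeq2 1.42.0 and its size factors, library size alone, voom and limma 3.58.1, no filter, a filter at 10 counts on average, the replicate number as a block, only the 6 libraries compared, a log2 fold change over 1, and leaving out each library in turn. Some results on single genes of the lists are not reported here.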

Additional observations from a re-analysis of the deposited data

How the results depend on the processing

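Against controls, no member's call was lost under any alternative other than the threshold of 1 on the log2 fold change, and none changed direction under any alternative run. The 9 fits without 1 library left 5 members higher and 3 lower with decitabine and 4 and 3 with the combination treatment. RASSF1 with the combination treatment was called with library size alone (0.37). A log2 fold change over 1 left 2 members higher and 1 lower in each treatment, 4208 of all genes higher and 1139 lower with decitabine, 3962 and 1216 with the combination treatment, 0 other hypermethylated genes lower in both, and 38 and 5 (decitabine) or 40 and 6 (combination treatment) of the pathway genes, which are 58 higher and 49 lower or 62 and 40 without it. Library size alone gave 3746 genes lower with decitabine and 3857 with the combination treatment, and 27 pathway genes lower with decitabine.

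Between the treatments, a log2 difference over 1 left 74 genes higher and 323 lower, 0 members in either direction, 1 other hypermethylated gene lower and 0 pathway genes higher and 3 lower. Of the members, 0 were lower without the filter or with only the 6 libraries compared. Other hypermethylated genes called higher were 1 with DESeq2, 1 with voom and limma, 2 without the filter and 1 with only the 6 libraries, which also gave 10 pathway genes higher. Leaving out 1 library gave 381 to 2066 genes higher and 480 to 1997 lower, 0 to 3 members higher and 0 to 1 lower, 0 to 3 other hypermethylated genes higher and 2 to 4 lower, and 4 to 18 pathway genes higher and 4 to 18 lower. The lowest counts of all genes came without combination replicate 2, and the next without decitabine replicate 2 (408 and 596), combination replicate 1 (591 and 773) and decitabine replicate 1 (846 and 937). CAV1 was not called without the filter (-0.20, adjusted p = 0.11) or with only the 6 libraries (-0.22, adjusted p = 0.073), and APC was called without the filter (0.29, adjusted p = 0.024) and without control replicate 1 (adjusted p = 0.048) in edgeR's test. The PTGS2 difference changed sign with voom and limma (0.031), without the filter (0.00072), with the replicate block (0.016), and in fits without 1 library, which gave -0.28 (without decitabine replicate 1) to 0.18, being above 0 without decitabine replicate 2 (0.13) or 3 (0.18) or combination replicate 1 (0.14) or 2 (0.084). The causes of these changes were not tested, beyond the fewer libraries or genes of some fits.

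The replicate numbers were also fitted as a block. Deviations of libraries with the same number correlated at -0.0165 to 0.233 (decitabine and combination 0.233, 0.0359 and 0.229), so the numbers were not taken to pair the samples. With the block, 2 members were lower between the treatments, CAV1 and MGMT (-0.33, adjusted p = 0.044 in edgeR's test), APC was also called (0.28, adjusted p = 0.041), and 1 other hypermethylated gene was higher. No call of a member against controls changed with the block. The depth limits RARB, whose 2 to 5 counts per group kept it out of the main test and leave wide intervals, and the lower bound of EDNRB.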
